A study of Homo sapiens with 12 samples.

Results

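Genomic imprinting restricts expression of a gene to the copy inherited from 1 parent. The 10 imprinted genes described here are PEG10, SGCE, PPP1R9A, MEST, COPG2 and GRB10 on chromosome 7, IGF2 and H19 on chromosome 11, MEG3 on chromosome 14 and PEG3 on chromosome 19. They are 10 of the 60603 genes counted, taken by symbol, and all 10 symbols matched an identifier. Their names were picked with the difference between the WT and NS1 cells of this series already known. The line differences of these genes are therefore given as descriptions without a test, and only the response to the inducer was tested.

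Poly(A) RNA of T24 cells, an established human bladder carcinoma line, was sequenced in 12 libraries, 3 in each of 4 groups. The series concerns AlissAID, a method that removes untagged cellular proteins by linking them to a ubiquitin ligase that is switched on by an auxin. The genotype is labelled WT or NS1, and each genotype was left without treatment or given 5-Ad-IAA, an auxin derivative that is the inducer of such systems. All 4 groups share the T24 background, the 2 genotypes are called the lines below, and the WT cells given 5-Ad-IAA are the control for the inducer. What NS1 stands for, the dose, the time of exposure and the number of clones behind the NS1 cells are not given in the sources used here.

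The libraries held 10593934 to 20266996 counts, and replicate 1 was the deepest of the 3 in every group. Epithelial keratins were abundant, with group means of 211 to 524 CPM for KRT19 (CPM, counts relative to each library's total, with libraries scaled by the trimmed mean of M-values), while the epithelial gene EPCAM was low, at 0.945 to 3.03 CPM. Without inducer KRT19 was higher in NS1 cells, by 0.78 on the log2 scale (edgeR adjusted p = 0.0312), and EPCAM was lower, at -1.76 (adjusted p = 0.0155). The part of these marker differences in the results below was not tested. Of 8 urothelial markers, GATA3, PPARG and FOXA1 were present, UPK2 stayed between 0.864 and 2.3 CPM, and UPK3A, which lines the surface of differentiated urothelium, had no count in any library. The leukocyte genes PTPRC and CD3E had at most 1 count in a library. Of the 6 markers of other cell types, CD14 had group means of 0.723 to 1.88 CPM, and the highest was MYH11, with group means of 11 to 13.3 CPM. In bulk RNA, fewer cells that express a gene and less RNA per cell cannot be told apart.

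Imprinted genes lie in clusters, and each cluster is governed by a control region that carries DNA methylation on 1 parental copy only. The mark is set in the germ line, kept through cell division by maintenance methylation and read in cis, so that neighbouring genes of a cluster can be active on opposite parental copies. Imprinted genes are known for roles in growth, the placenta and the brain, and loss of the parental mark is frequent in tumours. Gene counts as used here hold no allele information, so the parental copy behind a count is not measured.

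The annotated starts of the members were read from RefSeq (GRCh38.p14), as 250 bases before to 50 bases after each start. Starts are shown for genes that differed in their behaviour between the lines: MEST, GRB10 and PPP1R9A were lower in NS1 cells, while COPG2 and H19 overlapped between the lines. Capitals mark CG dinucleotides, the sites of DNA methylation. For MEST, an earlier and a later one of its 5 starts in the table are given, since gene counts do not tell which start was used. For GRB10, the start with the most CG dinucleotides is given.

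MEST, earlier start, plus strand, chr7:130486097-130486396: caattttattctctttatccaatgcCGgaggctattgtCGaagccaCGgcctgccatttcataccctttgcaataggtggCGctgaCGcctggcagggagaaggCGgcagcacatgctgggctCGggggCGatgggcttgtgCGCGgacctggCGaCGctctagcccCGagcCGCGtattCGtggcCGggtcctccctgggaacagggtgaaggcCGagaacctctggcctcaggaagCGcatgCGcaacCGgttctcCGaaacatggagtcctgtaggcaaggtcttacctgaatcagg
MEST, later start, plus strand, chr7:130491808-130492107: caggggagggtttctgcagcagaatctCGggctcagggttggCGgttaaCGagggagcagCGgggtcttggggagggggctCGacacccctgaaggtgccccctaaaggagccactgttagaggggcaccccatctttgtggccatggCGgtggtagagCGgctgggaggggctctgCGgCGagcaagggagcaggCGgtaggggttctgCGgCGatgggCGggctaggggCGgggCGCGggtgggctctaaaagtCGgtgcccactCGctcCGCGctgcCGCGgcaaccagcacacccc
GRB10, minus strand, chr7:50792825-50793124: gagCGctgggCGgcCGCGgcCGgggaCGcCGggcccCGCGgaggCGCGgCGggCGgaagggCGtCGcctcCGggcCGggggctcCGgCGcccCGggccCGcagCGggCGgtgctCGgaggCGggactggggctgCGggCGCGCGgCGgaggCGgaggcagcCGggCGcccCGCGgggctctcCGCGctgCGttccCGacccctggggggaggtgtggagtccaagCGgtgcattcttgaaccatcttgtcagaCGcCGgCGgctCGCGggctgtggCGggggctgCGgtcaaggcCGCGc
PPP1R9A, plus strand, chr7:94907344-94907643: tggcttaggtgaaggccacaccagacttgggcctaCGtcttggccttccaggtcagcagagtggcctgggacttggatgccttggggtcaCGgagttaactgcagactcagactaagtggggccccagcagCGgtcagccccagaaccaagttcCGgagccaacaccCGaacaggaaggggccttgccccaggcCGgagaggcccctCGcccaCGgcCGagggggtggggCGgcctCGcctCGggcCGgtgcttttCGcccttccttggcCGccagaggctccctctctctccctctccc
COPG2, minus strand, chr7:130668699-130668998: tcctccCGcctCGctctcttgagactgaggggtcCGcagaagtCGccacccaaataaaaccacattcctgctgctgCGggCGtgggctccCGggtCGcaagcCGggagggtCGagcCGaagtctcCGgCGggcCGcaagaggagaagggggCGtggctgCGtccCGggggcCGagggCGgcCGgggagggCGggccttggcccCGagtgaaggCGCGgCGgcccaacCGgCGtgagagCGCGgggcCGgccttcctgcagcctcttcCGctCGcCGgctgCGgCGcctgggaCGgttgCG
H19, minus strand, chr11:2001217-2001516: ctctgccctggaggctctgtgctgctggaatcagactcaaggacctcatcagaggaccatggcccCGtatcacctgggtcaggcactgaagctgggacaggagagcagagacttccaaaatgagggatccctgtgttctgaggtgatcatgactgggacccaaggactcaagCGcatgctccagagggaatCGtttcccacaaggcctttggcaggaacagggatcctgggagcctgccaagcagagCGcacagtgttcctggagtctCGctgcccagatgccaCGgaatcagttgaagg

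The windows differed widely in CG content. The GRB10 window held 49 CG dinucleotides, more than 98.4% of the 35116 promoters in the table, whose median was 14. The COPG2 window held 37, both MEST windows 22, the PPP1R9A window 15 and the H19 window 6. The hexamer TGCCGC, the core bound by the imprint keeper ZFP57, was searched on both strands. It occurred once in the earlier MEST window and 2 times in the later one, and it was not found in the GRB10, PPP1R9A, COPG2 and H19 windows shown. Windows not shown differed from these. Other GRB10 starts held 44, 24, 3 and 4 CG dinucleotides, and the one with 44 held the hexamer once. Other MEST starts held 13, 16 and 25 CG dinucleotides, with 1, 0 and 3 hexamers. Of all promoters in the table, 16.7% held the hexamer.

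A promoter window was matched for 6 of the 10 members, and PEG10, SGCE, PEG3 and IGF2 had no entry. PEG10 (ENSG00000242265.5) spans 94656325 to 94669695 on the plus strand of chromosome 7 and shares 219 exonic bases with SGCE, which is transcribed from the opposite strand. MEST (ENSG00000106484.15) spans 130486171 to 130506465 on the plus strand, and COPG2 (ENSG00000158623.14) spans 130506238 to 130668748 on the minus strand. MEST and COPG2 share 228 exonic bases. These positions and overlaps are from GENCODE 29 on GRCh38, and reads in shared bases could have been counted for either gene.

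The paternally expressed pair PEG10 and SGCE was present in every WT library and at or near 0 in every NS1 library. PEG10, a gene derived from a retrotransposon and needed for the placenta, had 165, 145 and 101 CPM in the untreated WT libraries 1 to 3. With 5-Ad-IAA the WT libraries had 145, 108 and 119 CPM. In NS1 cells PEG10 had 0, 0 and 1 counts without inducer and 1, 0 and 0 counts with it, beside 1048 to 3521 counts in the WT libraries. All 6 WT libraries stood far above all 6 NS1 libraries, and the inducer groups of one line overlapped. Against the level that 3 counts would give in the shallowest library of the NS1 group, PEG10 was at least 475-fold lower in NS1 cells, both without and with inducer.

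SGCE encodes epsilon-sarcoglycan, a membrane protein whose gene is mutated in myoclonus-dystonia. It had 18, 20.6 and 17 CPM in untreated WT cells and 19, 20.5 and 21.9 CPM with 5-Ad-IAA. No SGCE read was counted in any of the 6 NS1 libraries, which allows at most 0.2885 CPM in the shallowest of them. The difference was at least 64.3-fold without inducer and at least 78.1-fold with it. SGCE was the steadier of the pair in WT cells, with 18.5 ± 1.83 CPM (SD, n = 3) without inducer beside 137 ± 32.5 CPM (SD, n = 3) for PEG10.

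Genes that are clearly present in one line and at the floor of 3 counts in every library of the other were rare. Only 4 genes with a mean of at least 5 CPM in WT cells were at that floor in all 6 NS1 libraries, and 0 genes showed the opposite. PEG10 and SGCE were 2 of the 4. The others were ZNF518B on chromosome 4 and PRTFDC1 on chromosome 10, with WT means of 5.69 and 6.87 CPM. Over the 12 libraries, the genes outside the 10 members whose log2 CPM followed PEG10 most closely were ZNF518B (r = 0.9986), HOXA7 (r = 0.9925) and SUMF2 (r = 0.9906). These correlations are descriptions, since 6 of the 12 points sit at the floor. HOXA7, a homeobox gene of chromosome 7, had group means of 14.4 and 13.4 CPM in WT cells and 0.219 and 0.423 CPM in NS1 cells. SUMF2, on the same chromosome, had 92.6 and 94.6 CPM in WT cells and 45.9 and 48.9 CPM in NS1 cells.

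PPP1R9A, a further gene of the PEG10 cluster, was lower in NS1 cells but still present. It encodes neurabin, an actin-binding partner of protein phosphatase 1, and is expressed from the maternal copy in some tissues. Its WT libraries had 6.61, 8.11 and 5.61 CPM without inducer and 6.55, 3.93 and 6.75 CPM with it. The NS1 libraries had 2.28, 1.89 and 2.21 CPM without inducer and 1.98, 2.27 and 1.83 CPM with it. Every NS1 library was below every WT library. The log2 difference between the lines was -1.67 (SE 0.23) without inducer and -1.51 (SE 0.24) with it. PPP1R9A thus differed by 3.18-fold in means without inducer, while its 2 cluster neighbours differed by at least 64.3-fold.

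**Figure D1:**
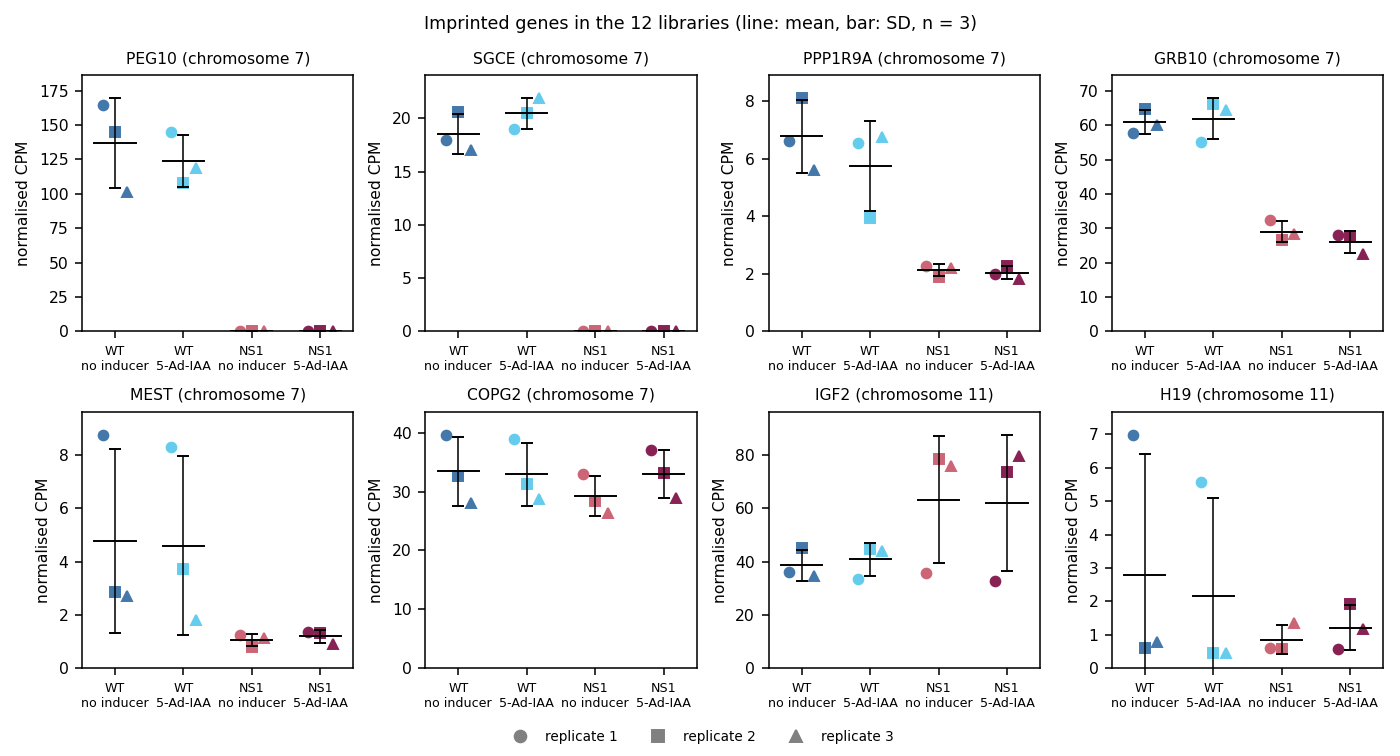
Normalised CPM of the 8 imprinted genes with counts, in each of the 12 libraries (circle, square and triangle: replicates 1 to 3; line: mean; bar: SD, n = 3, running below 0 for H19). PEG10 and SGCE lie at or near 0 in all NS1 libraries, GRB10 and PPP1R9A keep a lower level there, COPG2 overlaps, and replicate 1 stands apart for MEST, IGF2 and H19.

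MEST was lower in NS1 cells in every library, by an amount that depended on replicate 1. The gene encodes a protein of the alpha/beta hydrolase family, is expressed from the paternal copy and is linked to fetal growth. Untreated WT libraries had 8.76, 2.85 and 2.71 CPM, and WT libraries with inducer 8.31, 3.71 and 1.8 CPM. NS1 libraries had 1.23, 0.8 and 1.15 CPM without inducer and 1.35, 1.31 and 0.913 CPM with it. The lines did not overlap, and replicate 1 of the WT cells was the highest library in both treatments. Without inducer the ratio of WT to NS1 was 7.1 in replicate 1 and 2.85 in replicates 2 and 3, and with inducer it was 6.15 and 2.48. The log2 difference over all libraries was -2.21 (SE 0.58) without inducer and -1.98 (SE 0.56) with it. Replicate 1 was also the deepest library of each group, and the part of depth in this difference was not tested. MEST had 593 counts over the 12 libraries, and an antisense gene that overlaps it had 71, or 12% of the MEST total.

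COPG2, which overlaps the end of MEST, did not follow it. COPG2 encodes a gamma subunit of the coatomer, the coat of vesicles that return from the Golgi to the endoplasmic reticulum, and its imprinting is disputed. It had 39.6, 32.7 and 28 CPM in untreated WT libraries and 32.9, 28.4 and 26.4 CPM in untreated NS1 libraries. With inducer the values were 38.9, 31.2 and 28.7 CPM in WT cells and 37, 33.2 and 28.9 CPM in NS1 cells. The lines overlapped in both treatments, and replicate 1 was the highest of the 3 libraries in all 4 groups. The log2 difference was -0.20 (SE 0.16) without inducer and 0.00 (SE 0.16) with it.

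GRB10, on the other arm of chromosome 7, was lower in NS1 cells, without inducer by a smaller factor than PPP1R9A. It encodes an adaptor that binds the insulin and IGF1 receptors and restrains growth, and the parental copy it is expressed from depends on the tissue. Untreated WT libraries had 57.9, 64.9 and 60 CPM, and WT libraries with inducer 55.1, 66.2 and 64.6 CPM. NS1 libraries had 32.3, 26.5 and 28.3 CPM without inducer and 28, 27.8 and 22.4 CPM with it. The highest NS1 library, at 32.3 CPM, was below the lowest WT library, at 55.1 CPM. The log2 difference was -1.07 (SE 0.12) without inducer and -1.24 (SE 0.12) with it. With inducer the ratio of WT to NS1 in replicate 1 was 1.97 for GRB10 and 3.32 for PPP1R9A. In replicates 2 and 3 it was 2.6 and 2.61.

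The members on other chromosomes showed no such separation. IGF2, a fetal growth factor expressed from the paternal copy, had 36.1, 45.1 and 34.5 CPM in untreated WT libraries and 35.7, 78.4 and 75.8 CPM in untreated NS1 libraries. With inducer it had 33.6, 44.7 and 44.1 CPM in WT cells and 32.7, 73.8 and 79.5 CPM in NS1 cells. Replicate 1 of the NS1 cells lay among the WT libraries without inducer and, at 32.7 CPM, just below the lowest of them with inducer, while replicates 2 and 3 were above all of them. The ratio of NS1 to WT was 0.988 without and 0.974 with inducer in replicate 1, against 1.94 and 1.73 in replicates 2 and 3. The log2 difference over all libraries was 0.71 (SE 0.32) without inducer and 0.60 (SE 0.32) with it. A second IGF2 gene model held 7974 counts beside 8408 for the model used here, and INS-IGF2 held 1862, and the first of these shares 5144 exonic bases on the same strand with the model used.

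H19, a non-coding RNA made from the maternal copy next to IGF2, was low, and the direction of its difference rested on replicate 1. Untreated WT libraries had 6.98, 0.601 and 0.773 CPM, and untreated NS1 libraries 0.617, 0.581 and 1.35 CPM. With inducer, WT libraries had 5.56, 0.445 and 0.45 CPM and NS1 libraries 0.572, 1.92 and 1.16 CPM. The lines overlapped in both treatments. In replicate 1, H19 was 11.3-fold higher in WT than in NS1 cells without inducer and 9.72-fold higher with it, whereas in replicates 2 and 3 it was 1.4-fold and 3.44-fold higher in NS1 cells. The log2 difference was -1.89 (SE 1.04) without inducer and -1.02 (SE 1.00) with it over all libraries, and 0.43 and 1.76 when replicate 1 was left out. The same WT replicate 1 libraries were the highest ones for MEST.

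PEG3, a zinc finger gene expressed from the paternal copy, and MEG3, a non-coding RNA expressed from the maternal copy, had 0 counts in all 12 libraries. A count of 0 allows up to 0.1406 CPM in the deepest library and up to 0.29 CPM in the shallowest, for counting error only. Neither gene can be compared between the lines at this depth.

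Per kilobase of exon, the members spanned a wide range in untreated WT cells. PEG10 was the highest, at 20.5 ± 4.86 CPM per kb (SD, n = 3), followed by COPG2 at 8.08 ± 1.41, GRB10 at 6.22 ± 0.364 and IGF2 at 5.53 ± 0.819 CPM per kb. The libraries of GRB10 and IGF2 overlapped, while those of PEG10, COPG2 and GRB10 followed each other without overlap. MEST (0.996), H19 (0.961) and SGCE (0.888) were not separated from each other, and PPP1R9A had the lowest mean of the genes with counts, at 0.607 CPM per kb. Its libraries (0.503 to 0.727) lay below those of SGCE but not apart from MEST (0.564 to 1.83) and H19 (0.207 to 2.41). In untreated NS1 cells IGF2 was first at 9.07 ± 3.43 CPM per kb, overlapping COPG2 at 7.07 ± 0.799, and GRB10 followed at 2.96 ± 0.304 CPM per kb without overlap. H19, MEST and PPP1R9A followed at 0.293, 0.222 and 0.191 CPM per kb, and PEG10 and SGCE were last.

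Counted together, 5 of the 6 members on chromosome 7 had all NS1 libraries below all WT libraries, both without and with inducer. They were PEG10, SGCE, PPP1R9A, MEST and GRB10. None of the 4 members elsewhere did, of which IGF2 and H19 overlapped and PEG3 and MEG3 had no counts. Over all 17775 genes tested, 16.2% had non-overlapping groups with NS1 lower without inducer, and 22.2% did with inducer. Because the members were picked with these differences known, their count is not evidence of a difference from that background. The low-count filter was passed by 8 of the 10 members, PEG10 and SGCE through their WT libraries.

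A longer list of 50 imprinted genes, 11 on chromosome 7 and 39 elsewhere, widens the comparison. Like the lists of neighbours and of imprint regulators used below, it was drawn up with earlier results of these data known. Of the 50, 19 never exceeded the floor of 3 counts in a library, 12 of these without any count. A further 8 were removed by the low-count filter, so that 8 genes on chromosome 7 and 15 elsewhere were tested. Without inducer, 7 of the 8 on chromosome 7 were lower in NS1 cells, with a median log2 difference of -1.37, while 7 of the 15 elsewhere were lower, with a median of 0.01. The median over all genes tested was 8.83e-05. Of all tested genes of chromosome 7, imprinted or not, 85.2% were lower, with a median of -0.41. With inducer the medians were -1.74 on chromosome 7 and 0.50 elsewhere. Of the 8 chromosome 7 genes 6 are members, so this side of the list was chosen on the same differences. The remaining 2, TFPI2 and CPA4, had log2 differences of -0.61 (SE 0.42) and 1.18 (SE 0.72) without inducer, and neither was called (edgeR adjusted p = 0.372 and 0.312). Replicate 1 went the other way for both, with log2 ratios of NS1 to WT of 0.77 for TFPI2 and -0.44 for CPA4. In replicates 2 and 3 the ratio was -1.05 in both for TFPI2, and 2.63 and 2.76 for CPA4.

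Genes with paternal and with maternal expression had nearly the same median over the list without inducer. The median log2 difference without inducer was -0.03 over 10 tested genes with paternal expression and -0.01 over 10 with maternal expression. With inducer the medians were 0.14 and -0.05. The difference between the medians without inducer was -0.01, and it became 0.28 when at least 10 counts were required in every library, a filter that drops PEG10 and SGCE. On chromosome 7 the 3 tested paternal genes, PEG10, SGCE and MEST, had a median of -6.01 with PEG10 and SGCE put at their bounds. The 4 tested genes listed as maternal there, PPP1R9A, TFPI2, CPA4 and GRB10, had a median of -0.84. The allele labels are those of the list and were not measured in these cells. For PPP1R9A and GRB10 the expressed copy depends on the tissue. Elsewhere the medians were 0.28 over 7 paternal and 0.01 over 6 maternal genes. The paternal median on chromosome 7 rests on PEG10 and SGCE, whose starts overlap.

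**Figure D2:**
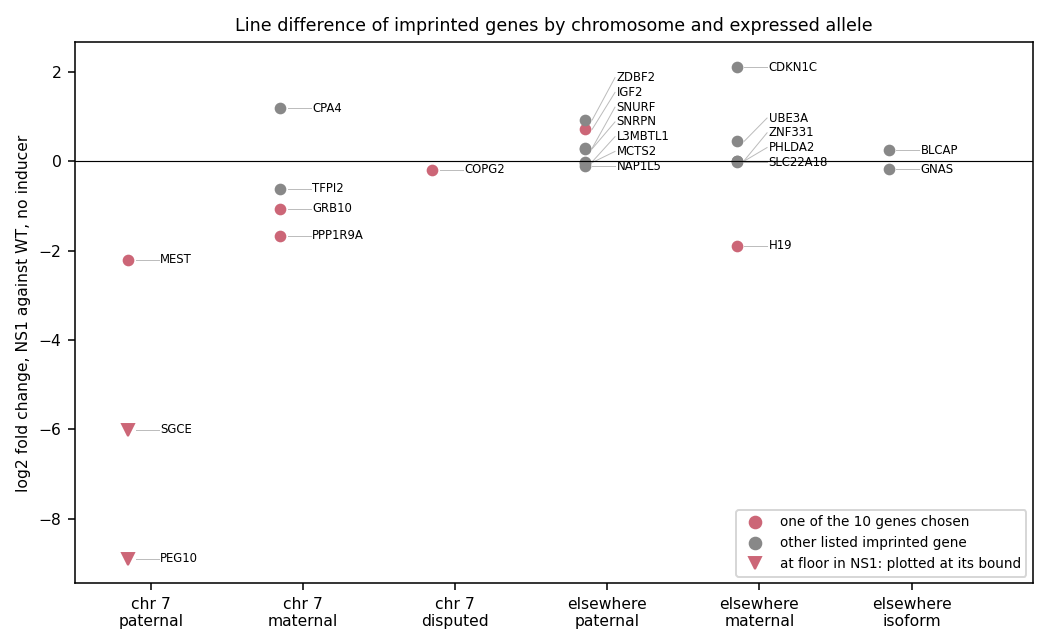
Log2 fold change between untreated NS1 and WT cells for the 23 tested genes of the imprinted list, by chromosome and expressed allele (triangles: genes at the floor in NS1 cells, drawn at their bound; "isoform": the allele depends on the transcript; thin lines join names to points). Of the chromosome 7 genes only CPA4 lies above 0, those elsewhere lie on both sides of 0, H19 (the lowest) turns to 0.43 without replicate 1, and CDKN1C (the highest) falls to 1.09 without NS1 replicate 1.

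The genes of chromosome 7 as a whole were lower in NS1 cells. Over its 854 tested genes the median log2 difference was -0.41 without inducer (quartiles -0.62 and -0.21), 85.2% of them were lower, and 30.7% were called lower. This was the lowest median of the 23 chromosomes compared, before chromosome 17 at -0.27 and chromosomes 11 and 22 at -0.20 and -0.19, while chromosome 18 had the highest, at 0.33. With inducer the median of chromosome 7 was -0.41 again and the lowest of the 23. The inducer itself left the chromosome 7 median in NS1 cells at 0.01. DNA copy number was not measured, so its part in these differences was not tested.

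Against their own chromosome the members fell at different places. Ordered from the lowest log2 difference without inducer, PEG10 was at place 1 of the 854 genes. SGCE is given no place of its own, since only a bound of at least 64.3-fold is known for it and HOXA7, from 14.4 to 0.219 CPM, lies close to that bound. MEST was at place 15, PPP1R9A at 25, GRB10 at 53 and COPG2 at 652. COPG2 was thus higher than the chromosome median of -0.41, and 6.09% of the chromosome's genes had a lower value than GRB10. On chromosome 11, with 974 tested genes and a median of -0.20, IGF2 was at place 947, through replicates 2 and 3, and H19 is given no place because its direction turned without replicate 1. With inducer PEG10 was at place 1 again, MEST at 19, PPP1R9A at 42, GRB10 at 62 and COPG2 at 668.

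**Figure D3:**
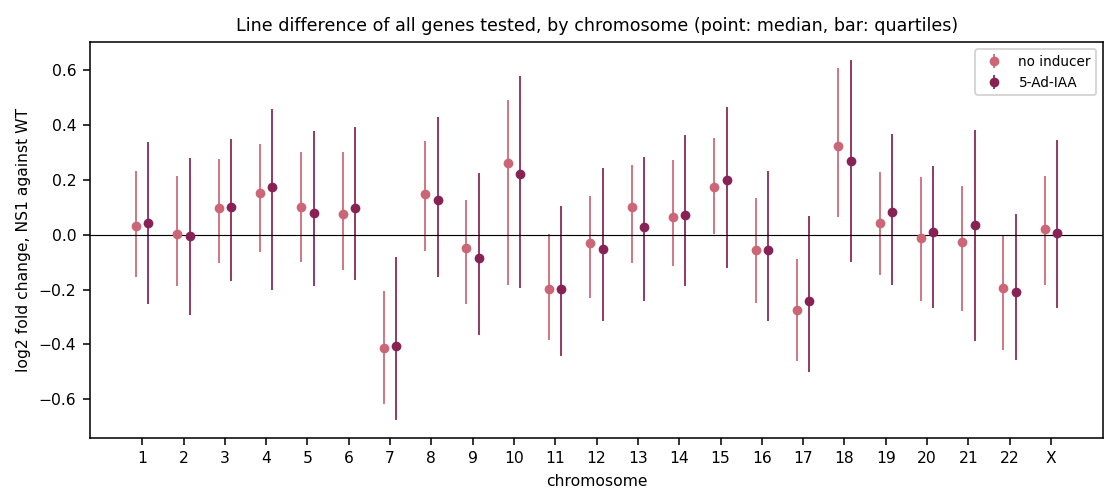
Median log2 fold change between NS1 and WT cells over the tested genes of each chromosome, without and with 5-Ad-IAA (bars: quartiles). Chromosome 7 has the lowest median in both treatments, at -0.414 and -0.406, and chromosome 18 the highest.

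Genes beside the members were lower too, but none as far as PEG10 and SGCE. Within 3 Mb of the start of PEG10, 27 of 30 tested genes other than the members were lower in NS1 cells without inducer, with a median log2 difference of -0.52, and 13 of them were called lower and 1, the pseudogene RPS3AP25, higher. SAMD9L in this region, named after its values were seen, was at -1.73 and called, beside -1.67 for the member PPP1R9A. With inducer SAMD9L was at 0.05, while GNGT1 at -2.55 and TFPI2 at -2.47 were lower than PPP1R9A at -1.51. Around MEST, 41 of 56 tested genes were lower without inducer (median -0.31) and 11 were called lower. Around GRB10 only 5 genes were tested, of which 4 were lower (median -0.69) and 2 were called lower, FIGNL1 and UPP1, the latter named after its values were seen. Over all genes tested, 7.05% were called lower and 12.5% were called in either direction without inducer. Over chromosome 7 as a whole, given above, 30.7% were called lower with a median of -0.41. Without inducer the MEST region was thus shifted less than its chromosome and the PEG10 region more, as a description without a test. With inducer the medians were -0.38 around PEG10, -0.23 around MEST and -0.97 around GRB10, against -0.41 for the chromosome. The PEG10 and MEST regions were then both shifted less than the chromosome. With inducer, 10 genes were called lower and 0 higher around PEG10, 17 lower and 4 higher around MEST, and 3 lower and 0 higher around GRB10. Over all genes tested 14.5% were called lower and 13.6% higher, and for the genes of chromosome 7 the shares were 38.4% and 4.33%.

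Of 20 listed neighbours of the 3 clusters, 7 were tested. All 7 were lower in NS1 cells without inducer, as were 85.2% of all tested genes of chromosome 7. The edgeR quasi-likelihood test with Benjamini-Hochberg adjustment called 5 of them. The list was drawn up with earlier results of these data known. Its calls and p-values therefore describe these genes and are no independent evidence of a line difference. In comparisons of the lines, p-values measure the spread between libraries and not between clones, whose number is not given. Of the tested genes of chromosome 7, 30.7% were called lower, and of all genes tested 7.05%. CASD1, a sialic acid acetyltransferase gene next to SGCE, fell by 0.71 on the log2 scale (SE 0.19, adjusted p = 0.0285), from a mean of 10.3 to 6.28 CPM. BET1, whose product fuses vesicles at the Golgi, fell by 0.54 (SE 0.15, adjusted p = 0.0303), and PON2, a paraoxonase, by 0.35 (SE 0.09, adjusted p = 0.0187). CEP41, a centrosomal gene beside MEST, fell by 0.71 (SE 0.14, adjusted p = 0.00741), and FIGNL1, a DNA repair gene near GRB10, by 0.69 (SE 0.16, adjusted p = 0.0171). GNGT1 and TSGA13 had log2 differences of -0.61 and -0.29 without a call. When 1 untreated library was left out, BET1 lost its call in 5 of 6 fits (all but WT replicate 1), CASD1 in 4 (all but WT replicate 3 and NS1 replicate 1), FIGNL1 in 4 (all but WT replicate 3 and NS1 replicate 1) and PON2 in 3 (WT replicate 1, NS1 replicates 2 and 3). Adjusted p-values in these fits reached 0.118 for BET1, 0.103 for CASD1, 0.0715 for FIGNL1 and 0.0762 for PON2, and CEP41 kept its call in all 6.

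With inducer, 6 of the 7 neighbours were called, with the same limit from the choice of the list. The background was 14.5% called lower and 28.2% called in either direction over all genes, and 38.4% called lower on chromosome 7. The sixth was GNGT1, a G protein gamma subunit gene, at -2.55 (SE 0.50, adjusted p = 0.00239), from 8.99 ± 4.92 CPM in WT to 1.48 ± 0.21 CPM in NS1 cells (SD, n = 3). CEP41 fell by 1.13 (adjusted p = 0.000142), FIGNL1 by 1.21 (adjusted p = 0.000232), BET1 by 0.87 (adjusted p = 0.000906), CASD1 by 0.74 (adjusted p = 0.0113) and PON2 by 0.26 (adjusted p = 0.0375). Leaving out any 1 of the 6 inducer libraries ended the call of PON2, with adjusted p-values up to 0.106.

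**Figure D4:**
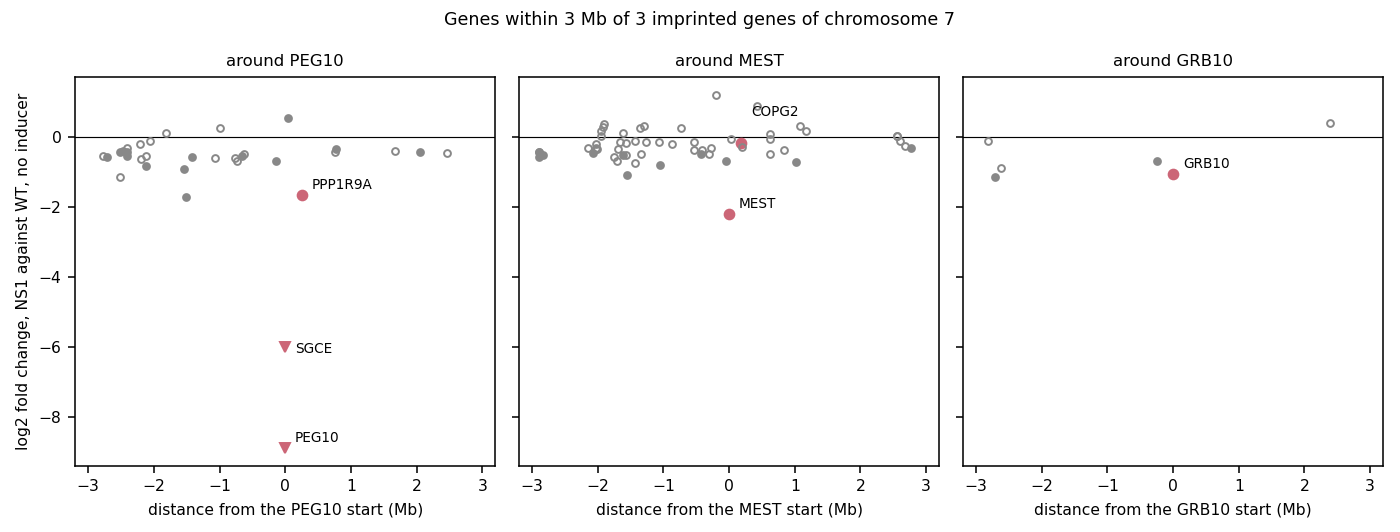
Log2 fold change between untreated NS1 and WT cells for tested genes within 3 Mb of the starts of PEG10, MEST and GRB10 (filled grey: called; open grey: not called; red: members; triangles: drawn at their bound). Most neighbours lie a little below 0, while PEG10 and SGCE stand alone at the bottom of their region.

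No member passed the test for a response to the inducer. In NS1 cells, 0 of the 6 members with counts above the floor there were called, where 6.15% of all genes tested were called. The smallest unadjusted p among them was 0.239, and DESeq2 and both models blocked by replicate number called 0 as well. GRB10 had 29 ± 2.98 CPM without and 26.1 ± 3.18 CPM with inducer (SD, n = 3), a log2 change of -0.15 (SE 0.12, edgeR adjusted p = 0.551). COPG2 changed by 0.17 (SE 0.16, adjusted p = 0.599), PPP1R9A by -0.08 (SE 0.26, adjusted p = 0.916) and IGF2 by -0.03 (SE 0.32, adjusted p = 0.973). For MEST (0.18, SE 0.66) and H19 (0.51, SE 1.17) a 2-fold change, 1 on the log2 scale, is less than 2 SE, so that a change of that size was not resolved. PEG10 and SGCE were at the floor in both NS1 groups, so they allow no fold and could not have been called.

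In WT cells the inducer comparison called no gene at all (edgeR, 0% of 17775 genes, with 94 at an unadjusted p under 0.05 and 0 called by DESeq2). PEG10 changed by -0.14 (SE 0.18) and SGCE by 0.14 (SE 0.14) on the log2 scale, and the largest member value was that of H19, at -0.36 (SE 0.88). The interaction of line and inducer, which asks whether the 2 lines respond differently, called 4 genes (0.0225%), none of them a member, and the smallest adjusted p of a member was 0.778 (GRB10). The p-values measure the spread between libraries, and the labels do not say whether these came from separate cultures.

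Of 15 tested listed genes that are no members, 2 were called with inducer in NS1 cells (6.15% of all genes) and 0 in WT cells (0% of all genes). TFPI2, a maternally expressed protease inhibitor gene of the PEG10 cluster, had 129, 110 and 118 CPM without and 45.7, 30.6 and 30.7 CPM with inducer in NS1 libraries. It fell by 1.73 on the log2 scale (SE 0.44, edgeR adjusted p = 0.035) with no overlap, while WT libraries had 75.5, 227 and 244 CPM without and 82, 270 and 244 CPM with inducer. SLC22A18, a maternally expressed transporter gene of chromosome 11, had 19.8, 22.9 and 20.9 CPM without and 36.2, 34.6 and 40.9 CPM with inducer in NS1 libraries. It rose by 0.81 (SE 0.14, adjusted p = 0.0067), and its WT libraries stayed between 17.5 and 24.9 CPM in both treatments. The test of the difference between the lines in this response called neither gene without a block (interaction, edgeR adjusted p = 0.201 for TFPI2 and 0.0813 for SLC22A18). TFPI2 lost its call when any NS1 library other than replicate 1 with inducer was left out, with adjusted p-values of 0.0779 to 0.131, and SLC22A18 kept it in these fits. Among markers of cell identity, GATA3 (30.9 to 78.2 CPM, adjusted p = 0.0281) and the endothelial gene PECAM1 (0.206 to 1.93 CPM, adjusted p = 0.0251) also rose with inducer in NS1 cells, and CDH5, another endothelial gene, stayed at the floor. Their part in the TFPI2 and SLC22A18 results was not tested.

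Pairing of libraries by replicate number within each line is shown for replicate 1 only. The fit with the number as a block within each line called 9 of these 15 genes in NS1 cells (25.9% of all genes). With 1 block over both lines 4 were called (13.6%). CDKN1C, a maternally expressed inhibitor of the cell cycle, had 22.2, 6.4 and 4.71 CPM without and 52.9, 17.2 and 19.1 CPM with inducer in NS1 libraries. It was higher with inducer in each of the 3 numbers, by 1.41 (SE 0.50, adjusted p = 0.117) without and 1.45 (SE 0.36, adjusted p = 0.0205) with the block. CPA4, a carboxypeptidase gene near MEST, had 112, 207 and 162 CPM without and 322, 445 and 464 CPM with inducer, and was called with blocks within each line only (1.38, adjusted p = 3.61e-07, against 0.311 without a block). BLCAP (0.46, adjusted p = 0.000131), SNRPN (0.40), SNURF (0.38) and GNAS (0.23) rose and PHLDA2 (-0.39) fell in that fit. The interaction called 6 of the 15 in it (14% of all genes), namely TFPI2 (-1.87), CPA4 (1.5), CDKN1C (1.97), PHLDA2 (-0.46), SLC22A18 (0.90) and BLCAP (0.55). No member was called in either block fit.

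**Figure D5:**
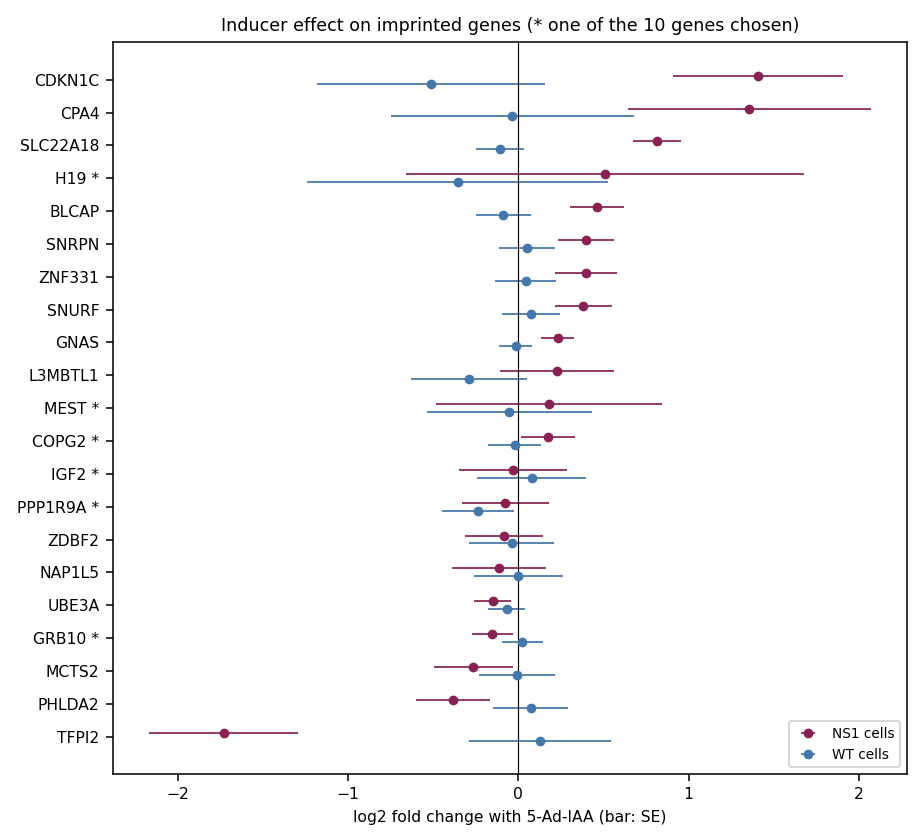
Log2 fold change with 5-Ad-IAA in NS1 and in WT cells for the tested genes of the imprinted list without PEG10 and SGCE (points: estimate; bars: SE; asterisks: members). The members lie near 0 in both lines or have wide bars, while in NS1 cells TFPI2 lies at -1.73 and SLC22A18 at 0.81.

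The imprinted list was drawn up with earlier results known, so its line calls are descriptions and no independent evidence. Between the lines, the listed genes that are no members had 3 higher and 0 lower calls in NS1 cells without inducer, beside 5.45% of all genes called higher without and 13.6% with inducer. The 3 of 15 were CDKN1C, higher by 2.10 (SE 0.58, adjusted p = 0.0311), ZDBF2, a paternally expressed zinc finger gene, by 0.92 (SE 0.24, adjusted p = 0.0242) and UBE3A, a ubiquitin ligase gene of the Angelman region, by 0.44 (SE 0.11, adjusted p = 0.0182). With inducer 8 were called higher and 1, TFPI2, lower (-2.47, SE 0.45, adjusted p = 0.00133). CDKN1C had 1.86 ± 0.23 CPM in WT and 29.7 ± 20.1 CPM in NS1 cells with inducer (SD, n = 3), a log2 difference of 4.02 (adjusted p = 0.000364). CPA4 was higher by 2.57 (adjusted p = 0.0204), SLC22A18 by 0.89 (adjusted p = 0.000531), BLCAP by 0.79 (adjusted p = 0.00273), SNRPN by 0.62 (adjusted p = 0.0132) and SNURF, which shares its transcript with SNRPN, by 0.60 (adjusted p = 0.0171). ZDBF2 (0.87) and UBE3A (0.36) were called again. Leaving out NS1 replicate 1, the highest untreated NS1 library at 22.2 CPM, took the CDKN1C difference without inducer to 1.09 (adjusted p = 0.182), and its call was also lost without any 1 of the 3 WT libraries (adjusted p up to 0.0905). Without inducer, ZDBF2 lost its call without WT replicates 1 or 3 or NS1 replicates 1 or 2 (adjusted p up to 0.0839), and UBE3A without replicate 1 of either line (0.0532 and 0.0736). With inducer, CPA4 lost its call without WT replicate 2 or 3 (0.0747 and 0.0754), and its difference rose to 4.09 without WT replicate 1, which had 156 CPM beside 23.9 and 24 CPM in the others. SNRPN and SNURF lost theirs without WT replicate 1 (0.0529 and 0.0678). ZDBF2 with inducer lost it without WT replicate 1 or NS1 replicate 2 (0.0632 and 0.0599), and UBE3A in 4 such fits (up to 0.109).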

How the data were processed

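The deposited table holds whole-number read counts per gene for 12 libraries, not normalised, as the authors made them. The submitters' processing notes name STAR 2.7.3a, featureCounts 1.6.4 and hg38, and annotation and strandedness are not given in the sources used here. Members and gene lists were chosen with earlier results of these data known. Symbols were found for 60306 of 60603 identifiers, and positions came from GENCODE 29. Counts were tested with edgeR 4.0.16 in R 4.3.3 (filterByExpr, 17775 genes, TMM, 1 quasi-likelihood model with a mean per group, two-sided), with Benjamini-Hochberg adjustment over all of them and a threshold of 0.05. DESeq2 1.42.0 was an alternative. A gene was at the floor in a group when each library held at most 3 counts, and folds against such a group are lower bounds that cover counting error only.

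The text names the members, other listed imprinted genes and neighbours with a mean of at least 1 CPM, imprint regulators called with a log2 change of at least 0.5, and the 3 genes outside the members most correlated with PEG10 on log2 CPM with a pseudocount of 1. Markers, PRTFDC1 and regulators listed with smaller changes were named after their values were seen. No libraries of the same group were duplicates: the lowest chi-square per degree of freedom within a group was 3.031. Libraries of unlike groups were not compared in this way. Within a line, deviations from the mean of each group were correlated between libraries of the same number. The correlations for replicates 1 to 3 were 0.767, 0.473 and 0.483 in NS1 cells and 0.802, 0.432 and 0.263 in WT cells. Replicate 1 thus went together in both treatments of a line. For replicates 2 and 3 no pairing is shown. A replicate 1 that stands apart puts both on the other side of the mean, and unlike numbers were not compared. On simulated counts of 17590 genes for the inducer in NS1 cells, the edgeR step recovered 62.9% of genes changed 2-fold and 97% of those changed 4-fold, with 9 false calls. The simulated libraries held no line difference and no shared shift of replicate 1. These rates therefore check the edgeR step and do not give the share of changes found in the real libraries.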

Additional observations from a re-analysis of the deposited data

How the results depend on the processing

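For the inducer in NS1 cells (1093 genes called) the count was 1801 with no low-count filter, 2421 with the replicate block, 4596 with the replicate block within each line, 403 to 1253 when 1 library and 0 to 2021 when 1 replicate number was left out (0 without replicate 2 or 3, where 2-library groups remained). For the interaction of line and inducer (4 called) it was 7 with RLE size factors, 683 with no filter, 33 with at least 10 counts in every library, 634 with the replicate block, 2495 with the block within each line, 377 with DESeq2, and 0 to 573 when libraries or replicates were left out. For the lines without inducer (2222 called) it was 3908 with the replicate block and 182 to 3466 with replicates left out. For the lines with inducer (5007 called) it was 1632 to 6007 with replicates left out. No member was called for the inducer or the interaction in any of these fits, and the block changed no member's call. The block within each line was not run for the line comparisons, since its blocks lie within a line. Without scaling factors, the share of higher calls moved from 44.8% to 32.8% for the inducer in NS1 cells and from 48.5% to 36.9% for the lines with inducer. The median of all chromosome 7 genes, lines with inducer (-0.406), was -0.48 without scaling factors and -0.33 with no filter. The paternal minus maternal, median over the imprinted list (-0.01) was 0.275 with at least 10 counts in every library and -0.0973 to 0.0965 with a replicate left out. Chromosome 7 minus elsewhere (-1.38) ran from -1.56 to -1.3. With replicates or libraries left out, the inducer change in NS1 cells ran from -0.235 to 0.0193 for PPP1R9A, -0.0475 to 0.383 for MEST, -0.321 to 0.279 for IGF2 and -0.172 to 0.958 for H19, and the H19 line difference from -2.69 to 0.433 without and -1.92 to 1.76 with inducer. The cause of these moves was not tested. Depth limits PPP1R9A, MEST, H19, PEG3 and MEG3 most, since each had under 200 counts in every library.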

Other observations

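Genes that set, keep or remove imprints were also measured, from a list of 16 of which 14 were tested. DNMT1, the maintenance DNA methyltransferase, fell with inducer in NS1 cells from 137 ± 6.97 to 89.1 ± 7.17 CPM (SD, n = 3), by 0.62 on the log2 scale (SE 0.11, edgeR adjusted p = 0.00717), and stayed at 141 ± 14.9 and 137 ± 11.3 CPM in WT cells. It was the only gene of the list called for the inducer in NS1 cells, and a replicate block raised this to 2 or, within each line, 7 genes. Of all genes tested, 6.15%, 13.6% and 25.9% were called in these 3 fits, so that 1 and 2 of 14 lie near the background. DNMT3A (0.44, adjusted p = 0.0212) was the second, and UHRF1 (-0.76, adjusted p = 0.000984), the partner that brings DNMT1 to replicated DNA, passed in the within-line fit only.

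Between the lines with inducer, 6 of the 14 were called, where 28.2% of all genes tested were called. This list, too, was drawn up with earlier results known, so its line calls are no independent evidence. TET3, which oxidises methylated cytosine, was higher in NS1 cells by 1.30 (SE 0.31, adjusted p = 0.00695), DNMT3A by 0.87 (adjusted p = 0.0038) and ZNF445, a zinc finger keeper of imprints, by 0.55 (adjusted p = 0.0309). EZH2, the polycomb methyltransferase, was lower by -0.90 (adjusted p = 0.00287), DNMT1 by -0.62 (adjusted p = 0.00108) and DNMT3B by -0.62 (adjusted p = 0.0289). Without inducer only TET3 was called (12.5% of all genes), at 1.08 (SE 0.30, adjusted p = 0.0349), from 10.6 ± 5.04 to 22.7 ± 2.97 CPM. ZFP57 had at most 2 counts in any library and CTCFL none. DNMT3B lost its call in 5 of the 6 fits that left out 1 library of these groups, all but NS1 replicate 2 (adjusted p up to 0.107), and ZNF445 in 4, without WT replicates 2 or 3 or NS1 replicates 1 or 2 (up to 0.116). TET3 without inducer lost it in 5 of 6, all but WT replicate 1 (up to 0.0934). DNMT3B also lost its call with DESeq2 (adjusted p = 0.0601), with no low-count filter (0.0823) and with only the groups compared (0.0502). With library totals in place of scaling factors, ZNF445 (0.0865) and TET3 without inducer (0.0519) lost theirs.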
